A study of Homo sapiens with 18 samples.

Results

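The genes described here are those of the epidermal differentiation complex together with the S100A genes, a run of neighbouring genes on human chromosome 1. Those other than the S100A genes mostly code for proteins of the outer layers of stratified epithelia. Members were chosen by symbol: the S100A, SPRR and LCE families and IVL, FLG, FLG2, LOR, HRNR, RPTN, CRNN, TCHH, TCHHL1, CRCT1, KPRP, LELP1, PGLYRP3 and PGLYRP4. Of 19401 genes listed in at least 1 of the 3 deposited tables, 50 were members, of which 16 were S100A, 11 SPRR, 10 LCE and 13 other genes. Of 60 protein-coding genes in RefSeq that the rule names, 49 were listed, and SPRR2C, which was listed, is not among those 60.

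RNA was sequenced from MCF10A, a non-tumorigenic, immortalized line of human mammary epithelium, and from CRISPR-Cas9 knockout clones of it, to find transcripts that depend on CBFB, on RUNX1 or on both. CBFB is the partner that stabilizes the binding of RUNX transcription factors to DNA. The 18 samples formed 5 groups: CBFB KO (3 samples of 1 clone) and its own wild type (WT, 3 samples), and 4 samples each of RUNX1 KO1, of RUNX1 KO2 and of a WT shared by these 2 clones. All groups grew untreated in the same medium, with horse serum, insulin, EGF, hydrocortisone and cholera toxin, at a capped passage number, and since each knockout group is 1 clone, an effect of the clone and of the lost gene cannot be told apart.

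In skin, keratinocytes that leave the basal layer build a cornified envelope: involucrin is laid down first under the plasma membrane, and transglutaminases then cross-link small proline-rich proteins, loricrin and late cornified envelope proteins onto it. Filaggrin, a fused-type S100 protein, packs keratin filaments and gives rise to moisture-holding amino acids. The S100A proteins are small calcium-binding dimers that act inside cells on annexins, myosin and other partners, and some, such as the S100A8-S100A9 pair, are secreted as alarm signals.

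The authors deposited 1 table per knockout clone. For each gene it gives the mean of normalized counts over the libraries compared, the log2 fold change of knockout over WT with a standard error (SE), and DESeq2's adjusted p-value. No value of a single library was analysed, so levels are means over 6 libraries (CBFB KO table) or 8 (each RUNX1 table), and the SE carries the spread between samples. Nothing in the labels says that samples of a group came from separate cultures, so the p-values measure the spread between these samples, which may be technical. A gene is called changed where the adjusted p was under 0.05 and the fold change 2 or more. From their values, the deposited fold changes are moderated, that is, pulled towards 0 for genes with little information. Among genes with a mean under 1 the largest absolute log2 fold change was 0.20 (CBFB KO), 0.47 (KO1) and 0.84 (KO2), against 7.58, 6.46 and 6.49 at means of 100 or more. Unmoderated values, computed back from the SE, are given for members with a mean of 100 or more wherever the SE allowed it. CBFB mRNA itself was at -4.88 ± 0.14 (log2 fold change ± SE, adjusted p = 1.39e-252) in CBFB KO, while RUNX1 mRNA was higher in KO1 (0.54 ± 0.09) and KO2 (0.46 ± 0.13), so mRNA does not check the RUNX1 labels.

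Every member called changed was higher in the knockout. In CBFB KO, 4 of 24 members tested rose and 0 fell, where 1.72% of all tested genes rose and 1.26% fell by the same thresholds. In RUNX1 KO1, 9 of 36 rose and 0 fell (all genes 3.36% and 1.57%), and in RUNX1 KO2, 6 of 28 rose and 0 fell (all genes 3.90% and 1.58%). At an unadjusted p under 0.05 in DESeq2's test, 15 of 44 listed members were higher in CBFB KO, 21 of 47 in KO1 and 13 of 40 in KO2, and 0 were lower. Over all listed genes, the shares higher at that p were 13.8% (CBFB KO), 20.0% (KO1) and 11.8% (KO2), and the shares lower were 11.1%, 20.6% and 9.09%. By adjusted p alone, 13 members were higher in CBFB KO (all genes 11.7% higher and 7.97% lower), 20 in KO1 (19.7% and 19.9%) and 7 in KO2 (8.76% and 6.08%), and 0 were lower. Over the members tested, the median log2 fold change was 0.52 (CBFB KO), 0.53 (KO1) and 0.70 (KO2), beside -0.01, -0.00 and 0.02 over all genes tested. Of 18 members tested in all 3 tables, 13 had a positive value in each, and of all 14500 genes tested in all 3, 28.0% did. KO1 and KO2 were set against the same 4 WT libraries, so their values are not independent of each other.

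IVL was the 1 member that rose past both thresholds in all 3 tables (all genes 0.959%), and IVL, S100A11 and SPRR2D were higher in all 3 by adjusted p alone (all genes 4.33%). S100A9, SPRR1A and SPRR2D rose in 2 tables. CRCT1, CRNN, FLG, HRNR, KPRP, PGLYRP3, PGLYRP4, S100A4, S100A8 and SPRR3 rose in 1. Of these 14 genes, 10 had a mean under 100 normalized counts in every table, so the changes that passed were mostly in sparsely expressed members. By family, 1 of 13, 2 of 14 and 1 of 9 tested S100A genes rose in CBFB KO, KO1 and KO2. Of the SPRR genes, 1 of 4, 2 of 8 and 2 of 8 rose, and of the other single genes 2 of 5, 5 of 10 and 3 of 7.

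**Figure D1:**
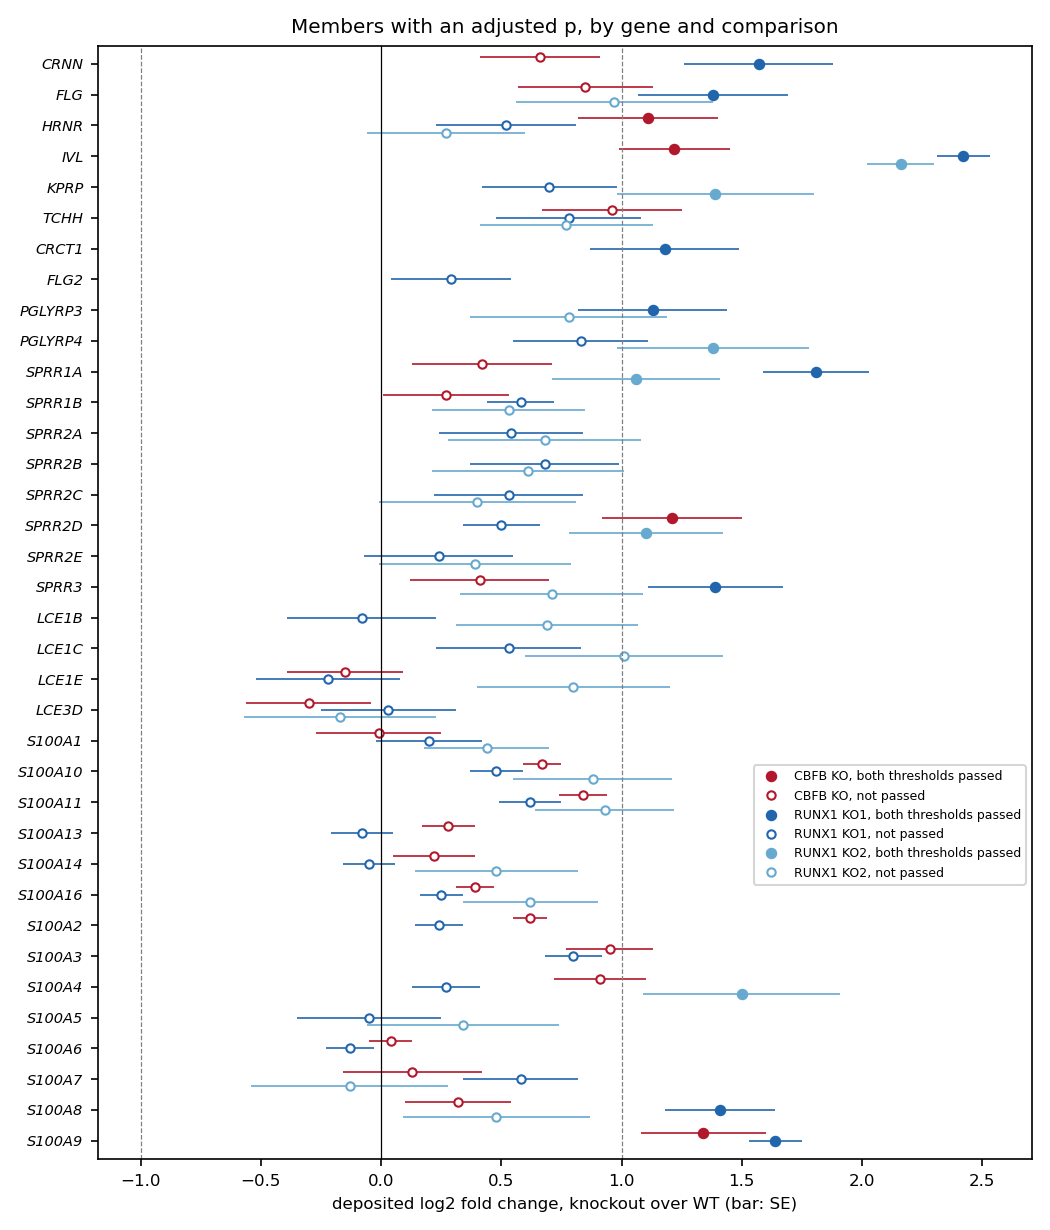
Deposited log2 fold changes of members that had an adjusted p in at least 1 table, 1 row per gene, with SE bars, colored by comparison (red CBFB KO, dark blue RUNX1 KO1, light blue RUNX1 KO2; filled points passed both thresholds). All filled points lie to the right of the dashed line at 1, and IVL is the row with 3 of them.

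IVL codes for involucrin, the early scaffold of the cornified envelope. Its mean was 199, 857 and 692 normalized counts in the tables of CBFB KO, KO1 and KO2. CBFB KO gave a log2 fold change of 1.22 ± 0.23 (adjusted p = 2.70e-06), KO1 one of 2.42 ± 0.11 (adjusted p = 4.35e-108) and KO2 one of 2.16 ± 0.14 (adjusted p = 1.59e-51). Unmoderated, these are folds of 2.83, 5.65 and 4.69. The means and unmoderated folds imply 104 normalized counts in WT and 294 in CBFB KO, and 258 in WT and 1456 in KO1, so WT of the RUNX1 experiment stood higher than WT of the CBFB experiment, each on its own scale. Among 18526 genes IVL ranked 9725 by mean in the CBFB KO table, and 4467 and 4840 in the KO1 and KO2 tables.

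RUNX1, with CBFB bound to it, recognizes a short motif in DNA, so the sequences just before the members' transcription starts were read. The 250 bases upstream of the RefSeq start (GRCh38.p14, used for sequence only) were searched on both strands for TGTGGT and TGCGGT, core letters of RUNX motifs. Of 45 members with a promoter sequence, 10 held a match (22.2%), beside 16.1% of all 27305 promoters of the same length. Of 12 members with a sequence that rose in at least 1 table, CRNN, IVL, S100A4, S100A9 and SPRR3 held a match, and of 33 that did not rise, 5 did (15.2%), counts given as a description with no test. SPRR1A, which rose in both RUNX1 clones, held no match, nor did FLG, HRNR and S100A8, each changed in a single table. S100A11, higher in every table by adjusted p alone and counted here as not risen, held a match, as did S100A13, which passed in no table. IVL and S100A9, which rose in every table that lists them, are shown with S100A14, an abundant member that did not change. Capitals mark the match, and these promoters were picked with the calls known. IVL lies at chr1:152908296-152908545 on the plus strand, S100A9 at chr1:153357604-153357853 on the plus strand and S100A14 at chr1:153616326-153616575 on the minus strand, each written 5′ to 3′ towards its start.
IVL: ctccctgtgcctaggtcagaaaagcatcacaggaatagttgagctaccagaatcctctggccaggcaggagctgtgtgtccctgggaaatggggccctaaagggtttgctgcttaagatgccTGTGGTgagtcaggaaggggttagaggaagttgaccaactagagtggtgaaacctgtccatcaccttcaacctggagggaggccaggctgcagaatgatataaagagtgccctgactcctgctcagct
S100A9: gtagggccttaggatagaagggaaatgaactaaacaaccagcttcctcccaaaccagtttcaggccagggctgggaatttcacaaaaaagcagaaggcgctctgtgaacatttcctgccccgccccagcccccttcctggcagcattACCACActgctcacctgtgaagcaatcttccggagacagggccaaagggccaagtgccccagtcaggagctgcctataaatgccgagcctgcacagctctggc
S100A14: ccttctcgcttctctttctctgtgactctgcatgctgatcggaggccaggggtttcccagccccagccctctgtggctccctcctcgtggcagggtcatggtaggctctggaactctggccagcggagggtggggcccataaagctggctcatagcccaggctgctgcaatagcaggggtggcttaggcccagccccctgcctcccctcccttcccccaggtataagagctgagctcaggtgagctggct
In IVL the match begins 128 bases before the start, and in S100A9 it lies on the opposite strand from 103 bases before the start. A match is a string of letters and not a measured site, and RUNX1 binding was not measured in these libraries.

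The small proline-rich (SPRR) genes code for the cross-bridging proteins of the envelope. SPRR1A had means of 33.9, 38.5 and 24.9 normalized counts in the CBFB KO, KO1 and KO2 tables. It rose in KO1, by 1.81 ± 0.22 on the log2 scale (adjusted p = 7.98e-15), and in KO2, by 1.06 ± 0.35 (adjusted p = 0.0208), and CBFB KO gave 0.42 ± 0.29 (adjusted p = 0.351). The KO2 call was lost, at 0.80 and adjusted p = 0.116, once a trend on transcript length and GC content was removed. SPRR1B, the closely related copy, had means of 74.4, 163 and 157 and passed the adjusted p alone in KO1 (0.58 ± 0.14, adjusted p = 2.34e-04), with 0.27 ± 0.26 in CBFB KO and 0.53 ± 0.32 in KO2.

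SPRR2D rose in CBFB KO (mean 15.0, log2 fold change 1.21 ± 0.29, adjusted p = 4.84e-04) and in KO2 (mean 131, 1.10 ± 0.32, adjusted p = 0.00616), and in KO1 it was higher by less than 2-fold (mean 95.1, 0.50 ± 0.16, adjusted p = 0.00521). SPRR3, which marks mucosal squamous epithelium, rose in KO1 alone by both thresholds (1.39 ± 0.28, mean 18.3, adjusted p = 7.80e-06), with 0.41 ± 0.29 in CBFB KO and 0.71 ± 0.38 in KO2. SPRR2A, SPRR2B, SPRR2C and SPRR2E had no adjusted p in the CBFB KO table, at means of 0.469 to 2.06, and did not pass in either RUNX1 clone, where their log2 fold changes lay between 0.24 and 0.68. SPRR2 genes are near-identical copies, so reads could be split among them in ways the tables do not show. SPRR2F, SPRR2G and SPRR4 had means under 1 in all tables. All 8 SPRR genes tested in each RUNX1 clone, and all 4 tested in CBFB KO, had a positive log2 fold change.

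Genes of the late envelope were close to absent. LOR, which codes for loricrin, the main late envelope protein of skin, was listed in the CBFB KO table alone, at a mean of 0.408. Of the LCE (late cornified envelope) genes, 10 were listed and 0 changed in each table by DESeq2, with 1, 0 and 2 at an unadjusted p under 0.05, all higher. The highest LCE mean was that of LCE1E, at 18.3 normalized counts in the KO2 table, with a log2 fold change of 0.80 ± 0.40 there (adjusted p = 0.195). LCE1C was at 1.01 ± 0.41 in KO2 (adjusted p = 0.0815) and 0.53 in both other tables. The other 8 LCE genes had means under 10 in every table that lists them. Of 60 annotated genes, LCE1F, LCE2B, LCE2C, LCE2D, LCE3B, LCE3C, LCE4A, LCE6A, LCE7A, LELP1 and SPRR5 were listed in no table. CRCT1, a small cysteine-rich neighbour of the LCE genes, rose in KO1 from a low level (mean 6.91, log2 fold change 1.18 ± 0.31, adjusted p = 7.81e-04).

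The filaggrin-type genes, whose proteins join an S100 domain to long repeats, were also sparse. FLG, which codes for filaggrin, had means of 8.90, 8.11 and 4.61 normalized counts, spread over a transcript of 12747 nucleotides. It was higher in CBFB KO by adjusted p alone (0.85 ± 0.28, adjusted p = 0.0184), it rose in KO1 (1.38 ± 0.31, adjusted p = 7.12e-05) and was at 0.97 ± 0.41 in KO2 (adjusted p = 0.0977). HRNR (hornerin) rose in CBFB KO at a mean of 14.5 (1.11 ± 0.29, adjusted p = 0.00166) and was at 0.52 ± 0.29 in KO1 and 0.27 ± 0.33 in KO2. TCHH (trichohyalin, known from the hair follicle) was higher by adjusted p alone in CBFB KO, at 0.96 ± 0.29 (adjusted p = 0.00806), and likewise in KO1, at 0.78 ± 0.30 (adjusted p = 0.0264), with 0.77 ± 0.36 in KO2. CRNN (cornulin of mucosal epithelia) rose in KO1 (1.57 ± 0.31, adjusted p = 3.65e-06) and was higher by adjusted p alone in CBFB KO (0.66 ± 0.25, adjusted p = 0.0478), at means of 4.53 and 4.64. FLG2, RPTN and TCHHL1 had means under 1.5 in every table that lists them and did not change.

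Keratinocyte proline-rich protein and the peptidoglycan recognition proteins, which bind bacterial cell walls, showed the same low range. KPRP rose in KO2 (mean 2.82, log2 fold change 1.39 ± 0.41, adjusted p = 0.00725), and in KO1 it was at 0.70 ± 0.28 (adjusted p = 0.0382). PGLYRP4 rose in KO2 (mean 3.30, 1.38 ± 0.40, adjusted p = 0.00671), with 0.83 ± 0.28 in KO1 (adjusted p = 0.0106). PGLYRP3 rose in KO1 (mean 6.03, 1.13 ± 0.31, adjusted p = 0.00142), with 0.78 ± 0.41 in KO2. In the CBFB KO table these 3 genes had means of 0.145 to 0.716 and no adjusted p. With means of a few normalized counts, each of these calls rests on few reads.

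**Figure D2:**
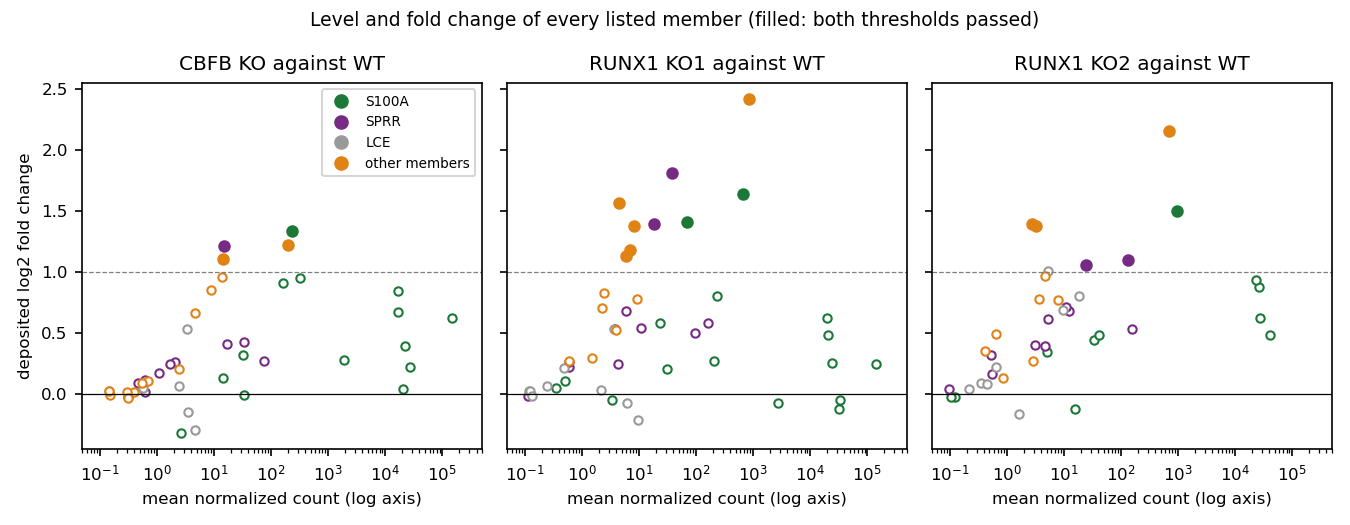
Mean normalized count (log axis) against deposited log2 fold change for each listed member, with a panel per comparison, colored by family and filled where both thresholds were passed. The abundant S100A genes at the right (6 in the CBFB KO and KO1 panels, 4 in the KO2 panel) lie below the dashed line at 1, and IVL, S100A9 and, in KO2, S100A4 and SPRR2D are the filled points above a mean of 100.

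The S100A genes held nearly all of the members' RNA. S100A2, S100A6, S100A10, S100A11, S100A14 and S100A16 had means above 10000 normalized counts and made up 98.8% of the summed means of members in the CBFB KO table and 98.1% in the KO1 table. Together, members took 1.26%, 1.55% and 0.726% of the summed means in the CBFB KO, KO1 and KO2 tables. S100A2, S100A3, S100A6, S100A9 and S100A13 are not listed in the KO2 table although both other tables give them means of 100 or more. That holds for 5 of 11 such members and for 338 of 10531 such genes (3.21%), so KO2 gives no value for these members and the medians above are over different genes.

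S100A2, a calcium-binding protein of basal epithelial cells that can bind p53, ranked 2 by mean among all genes in the CBFB KO table and 3 in the KO1 table. Its mean was 146604 and 143399 normalized counts. On the log2 scale it was higher by 0.62 ± 0.07 (adjusted p = 2.29e-15) in CBFB KO and by 0.24 ± 0.10 (adjusted p = 0.0422) in KO1, both short of 2-fold. Its implied level went from 115307 in WT to 177902 in CBFB KO, and from 131109 in WT to 155689 in KO1.

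S100A10, the light chain of the annexin A2 complex at the plasma membrane, and S100A11, a partner of annexin A1, lie next to each other at the end of the complex nearest the centromere. For S100A10, CBFB KO gave a log2 fold change of 0.67 ± 0.08 (adjusted p = 1.66e-15), KO1 0.48 ± 0.11 (adjusted p = 3.01e-05) and KO2 0.88 ± 0.33 (adjusted p = 0.0549). For S100A11 the values were 0.84 ± 0.10 (adjusted p = 2.66e-15), 0.62 ± 0.13 (adjusted p = 2.86e-05) and 0.93 ± 0.29 (adjusted p = 0.0136). Unmoderated, S100A11 was 1.82-fold, 1.57-fold and 2.13-fold higher, so the KO2 value passes 2-fold on that scale. Both genes started from high levels, with implied WT means of 13172 and 12108 in the CBFB KO table.

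S100A16 was higher by 0.39 ± 0.08 (CBFB KO, adjusted p = 9.07e-06) and in KO1 by 0.25 ± 0.09 (adjusted p = 0.0163), with 0.62 ± 0.28 in KO2 (adjusted p = 0.139). S100A14, its neighbour on chromosome 1, was at 0.22 ± 0.17, -0.05 ± 0.11 and 0.48 ± 0.34, and none of the 3 values passed. S100A6 (calcyclin) was at 0.04 ± 0.09 in CBFB KO and -0.13 ± 0.10 in KO1, at means of 20974 and 31778. The 95% intervals of the S100A6 values ran from -0.13 to 0.21 and from -0.33 to 0.06. With the length and GC trend removed, S100A6 turned to -0.05 in CBFB KO and 0.13 in KO1, and S100A14 to 0.14 in KO1, none passing. S100A13, which takes part in the release of fibroblast growth factor 1, was at 0.28 ± 0.11 (adjusted p = 0.0596) and -0.08 ± 0.13, at means of 1932 and 2712. Of the 6 abundant S100A genes, S100A2, S100A10, S100A11 and S100A16 were thus higher by adjusted p in both CBFB KO and KO1, and S100A6 and S100A14 passed in no table that lists them.

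**Figure D3:**
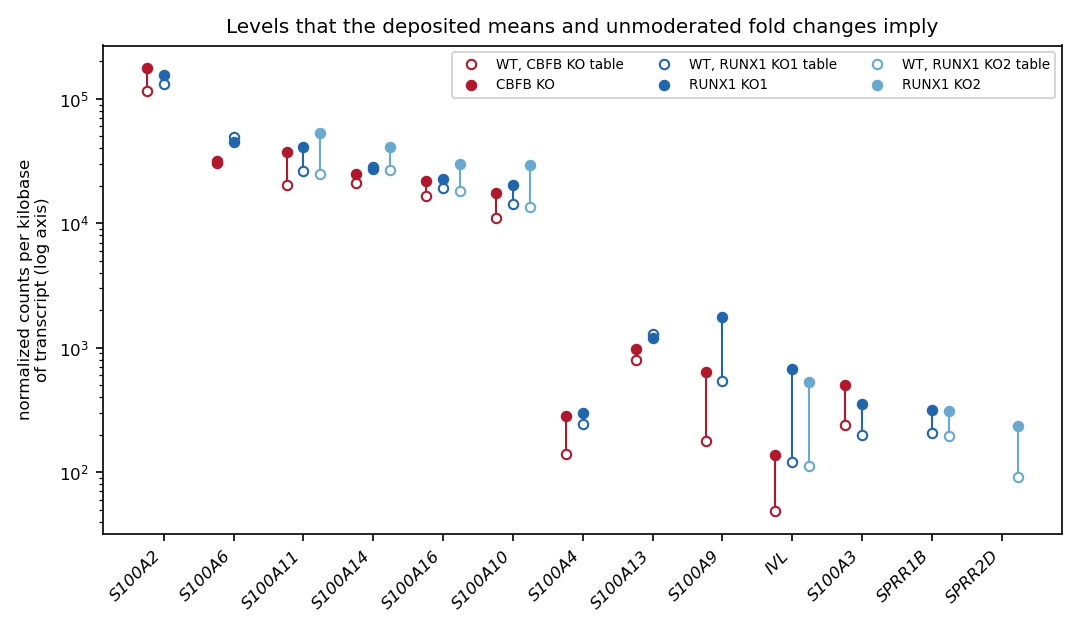
Levels of members with a mean of at least 100, as normalized counts per kilobase of transcript (log axis), in WT (open) and knockout (filled), computed from deposited means and unmoderated fold changes and colored by table. S100A2 stands highest, the 5 other abundant S100A genes follow, and of the pairs drawn, the gaps of IVL and S100A9 are the widest. S100A4 in KO2 is not drawn, since no unmoderated value is given for it.

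S100A9 and S100A8 form calprotectin, a zinc-binding antimicrobial and alarm protein of neutrophils and of stressed keratinocytes. S100A9 rose in CBFB KO (mean 234, log2 fold change 1.34 ± 0.26, adjusted p = 5.67e-06) and in KO1 (mean 661, 1.64 ± 0.11, adjusted p = 1.40e-45). Unmoderated, the folds were 3.54 and 3.25, from implied WT levels of 103 and 312. S100A8 had means of 33.0, 69.1 and 41.8 normalized counts, and rose in KO1 (1.41 ± 0.23, adjusted p = 1.16e-08). It was at 0.32 ± 0.22 (adjusted p = 0.351) in CBFB KO and at 0.48 ± 0.39 (adjusted p = 0.538) in KO2. Per kilobase of transcript, the S100A9 mean was 406 in the CBFB KO table beside 46.0 for S100A8, and 1146 beside 96.4 in the KO1 table. S100A7 (psoriasin) was higher in KO1 by adjusted p alone (0.58 ± 0.24, mean 23.3, adjusted p = 0.0464), with 0.13 ± 0.29 in CBFB KO and -0.13 ± 0.41 in KO2. S100A12, known from neutrophils, had means under 1. Since S100A8 and S100A9 are also leukocyte genes, 8 leukocyte markers were read: PTPRC was listed in the CBFB KO table alone, at 0.463, ELANE in no table, and CD3E reached at most 0.301. Means ran from 1.72 to 2.49 for ITGAM, from 7.66 to 11.7 for LYZ and from 32.7 to 48.3 for MPO. The summed means of the leukocyte list were 189, 186 and 189, mostly CD14. MPO, which rose in KO1 (1.27 ± 0.22, adjusted p = 9.81e-08), was the 1 listed marker that passed both thresholds. In KO2 it was higher by adjusted p alone (0.84 ± 0.30, adjusted p = 0.0401).

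S100A3 and S100A4 lie side by side on chromosome 1. S100A3, known from the hair cuticle, was higher by 0.95 ± 0.18 (CBFB KO, mean 318, adjusted p = 3.09e-06) and 0.80 ± 0.12 (KO1, mean 237, adjusted p = 1.23e-10). Its unmoderated fold in CBFB KO was 2.10, and in KO1 the value reached 1.02 once the length and GC trend was removed, so both values lie near the threshold. S100A4, which binds nonmuscle myosin and is known from motile and mesenchymal cells, was higher in CBFB KO (mean 160, 0.91 ± 0.19, adjusted p = 1.85e-05), did not pass in KO1 (mean 204, 0.27 ± 0.14, adjusted p = 0.113) and rose in KO2 (mean 983, 1.50 ± 0.41, adjusted p = 0.00310). With the length and GC trend removed, S100A4 in KO1 was at 0.54 and passed the adjusted p alone (7.22e-04).

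Of the 7 members with a mean of at least 100 in the KO1 and KO2 tables, S100A4 was the one whose deposited change in KO2 stood furthest from the ratio of means. Its SE of 0.41 lies above 0.95 of the highest SE of that table, so no unmoderated value is given. The KO1 table implies a WT level of 184, or 173 on the scale of the KO2 table, and with the KO2 table's mean of 983 that leaves 1794 in KO2, a ratio of 10.4 (3.37 on the log2 scale) beside the deposited 1.50. Between the KO1 and KO2 tables, which share WT, the log2 ratio of the WT levels implied by unmoderated values had an SD of 0.0057 over 10174 such genes, and 1 gene, S100A4, was off by more than 0.25. For S100A4 that ratio rests on the KO2 value withheld above for its high SE, so it is no measure of its WT level. How the KO2 libraries spread around that mean was not analysed here.

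S100A1, a gene of heart and skeletal muscle, had means of 31.7 to 33.9 and log2 fold changes of -0.01 ± 0.26, 0.20 ± 0.22 and 0.44 ± 0.26. S100A5 had means of 2.64 to 5.08 and did not pass in the RUNX1 clones, and S100A7A had means under 1. In all, 28 members had a mean under 10 in every table that lists them, and 14 had no adjusted p in any table.

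CBFB KO was compared with each RUNX1 clone, which share no library, by the difference of their log2 fold changes. The CBFB and RUNX1 experiments had separate WT, so effects of experiment, clone and lost gene cannot be told apart in these differences. Against KO1, 24 members were tested: S100A2 was higher in CBFB KO (all genes 5.72%), and IVL, S100A8 and SPRR1A were lower (all genes 4.12%). The differences were 0.37 ± 0.12 for S100A2 (adjusted p = 0.0323), -1.20 ± 0.25 for IVL (adjusted p = 1.62e-04), -1.09 ± 0.32 for S100A8 (adjusted p = 0.0144) and -1.39 ± 0.37 for SPRR1A (adjusted p = 0.00473). Against KO2, 18 members were tested, 0 were higher in CBFB KO (all genes 1.28%) and IVL was lower (all genes 1.62%), by -0.94 ± 0.27 (adjusted p = 0.0201). The median difference of the members was 0.11 against KO1 and -0.22 against KO2, beside 0.01 and -0.01 over all genes. The moderation differs between tables, which bears on these differences. On unmoderated values, for genes at means of 100 or more, IVL was still lower in CBFB KO than in KO1 (2.83-fold against 5.65-fold, SE of the log2 difference 0.30, adjusted p = 0.0174) and no longer differed from KO2 (-0.73 ± 0.32, adjusted p = 0.411), S100A2 still differed from KO1 (0.38 ± 0.13, adjusted p = 0.0324) and S100A4 did as well (0.74 ± 0.26, adjusted p = 0.0390). S100A2 no longer differed once the length and GC trend was removed (0.09 ± 0.12, adjusted p = 0.790). S100A4 had not passed against KO1 on deposited values (0.64 ± 0.23, adjusted p = 0.0572), nor did it with the trend removed (0.32 ± 0.23, adjusted p = 0.527). S100A10, S100A11, S100A9 and S100A3 gave differences from KO1 of 0.18, 0.22, -0.30 and 0.16, with 95% intervals of -0.07 to 0.44, -0.11 to 0.54, -0.86 to 0.25 and -0.26 to 0.58, and none passed. Their directions turned with the setting: with the trend removed S100A10, S100A11 and S100A3 were at -0.08, -0.13 and -0.16, and without moderation S100A9 was at 0.12.

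**Figure D4:**
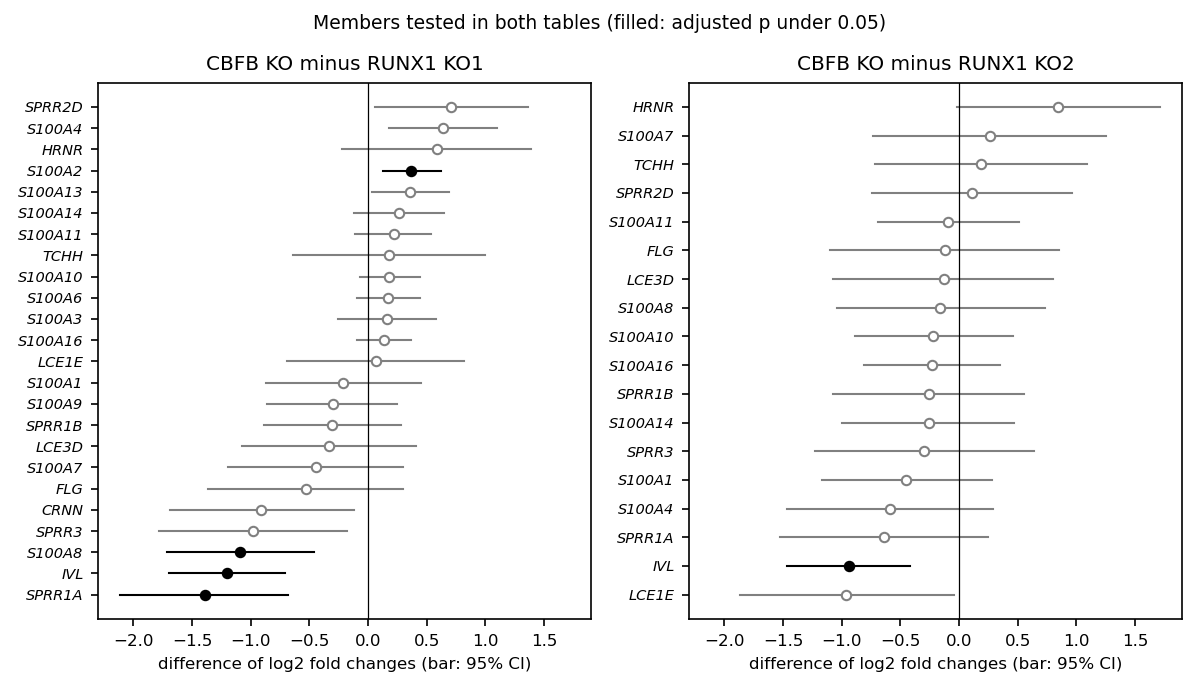
Difference of log2 fold changes, CBFB KO minus each RUNX1 clone, with 95% confidence intervals, for members tested in both tables (filled: adjusted p under 0.05). Against KO1, SPRR1A, IVL and S100A8 lie left of 0 and S100A2 right of it. Against KO2, where intervals are wider, IVL lies left of 0.

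The members lie next to each other on chromosome 1, so the genes on either side were read in RefSeq order. Between the members lie 3 other protein-coding genes, none with an adjusted p. Of 10 listed genes on each side, 20 in all, TUFT1 and NPR1 rose and 0 fell by both thresholds in DESeq2's test. NPR1, the receptor of atrial natriuretic peptide, rose in CBFB KO (1.49, adjusted p = 3.10e-13), KO1 (2.90, adjusted p = 1.46e-43) and KO2 (3.57, adjusted p = 2.31e-49). TUFT1, which codes for tuftelin, rose in KO1 (1.27, adjusted p = 1.35e-61) and KO2 (1.18, adjusted p = 3.58e-24), with 0.63 in CBFB KO (adjusted p = 0.110). The median over the flanking genes was -0.01, -0.10 and -0.07 in CBFB KO, KO1 and KO2. By adjusted p alone 2, 2 and 2 of them were higher (all genes 11.7%, 19.7% and 8.76%). Lower were 1, 6 and 2 (all genes 7.97%, 19.9% and 6.08%), including THEM4 in both RUNX1 clones. TUFT1 is the gene furthest out of the 10 on its side, and NPR1 follows S100A1, the outermost member, a few genes on at the other end.

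**Figure D5:**
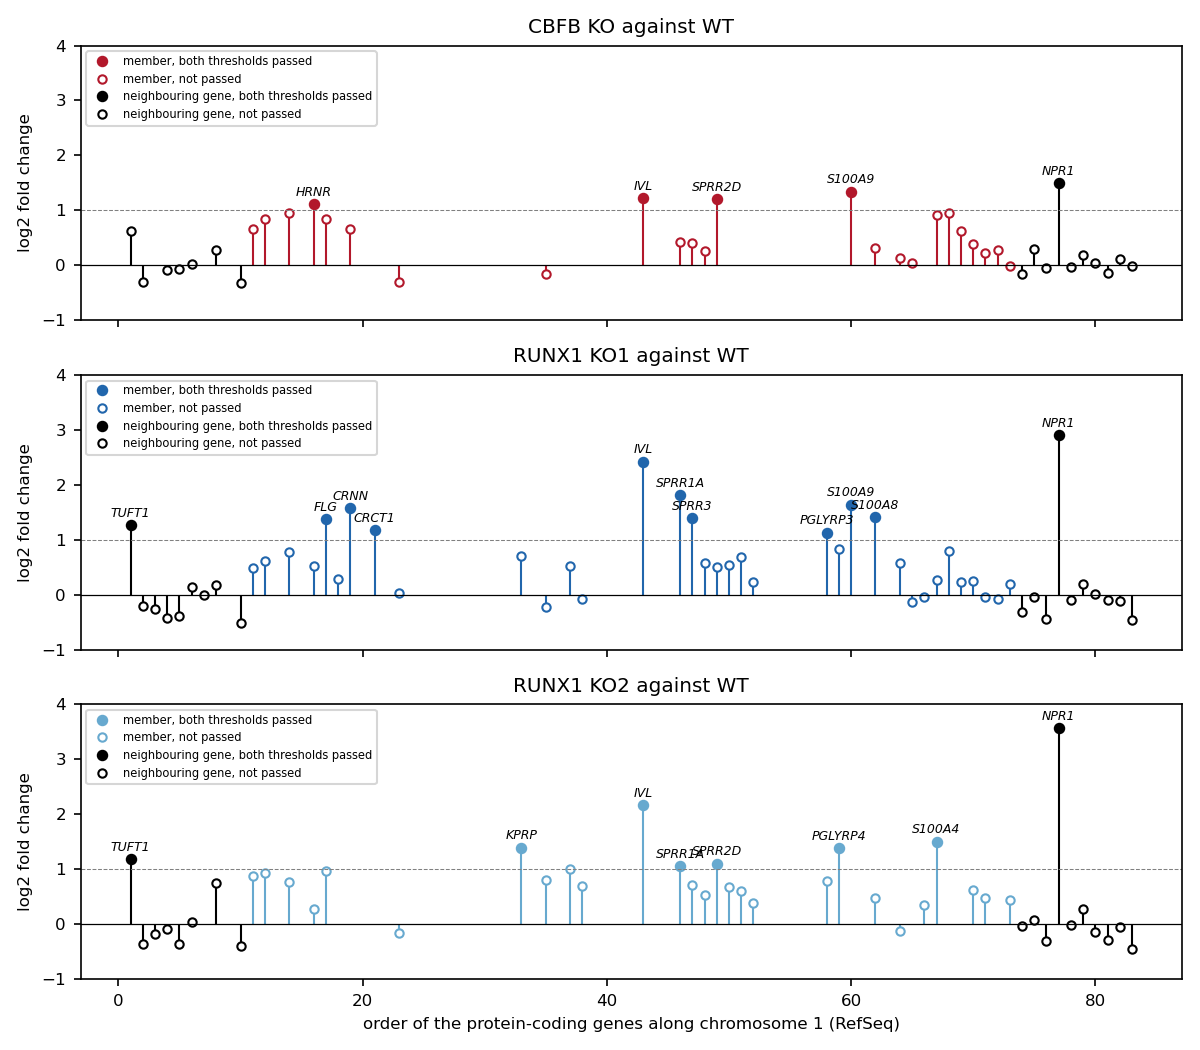
Deposited log2 fold change of genes with an adjusted p in their order along chromosome 1, with a panel per comparison (colored: members; black: neighbouring genes; filled: both thresholds passed, with the gene named). Filled members lie at several places along the run, and among the neighbours NPR1 in all 3 panels and TUFT1 in KO1 and KO2 are filled.

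Genes that work with the members were read from lists chosen with earlier results of these data known. Of 27 genes of the cornified envelope and late differentiation outside the complex, 15, 23 and 19 had an adjusted p in the tables of CBFB KO, KO1 and KO2. In CBFB KO, 0 rose and 0 fell, with 6 higher and 1 lower at an unadjusted p under 0.05 in DESeq2. In KO1, SBSN, CALML3, CALML5, ABCA12 and SPINK5 rose and TGM5 fell, and in KO2, TGM1, CSTA, SBSN, ABCA12 and SPINK5 rose and TGM5 fell, genes named after their values were seen. Of these, SBSN (suprabasin) was at 2.57 in KO1 and 1.99 in KO2, and at 0.11 in CBFB KO (adjusted p = 0.843). The most abundant genes of the list were CSTA (cystatin A, 0.49, 0.66 and 1.15, each past the adjusted p), DMKN (0.22, -0.10 and 0.41, none passing) and EVPL (envoplakin, 0.40, 0.63 and 0.65, each past the adjusted p). TGM1, the transglutaminase that cross-links involucrin, was at -0.27 ± 0.22 (adjusted p = 0.430) in CBFB KO, 0.13 ± 0.10 (adjusted p = 0.341) in KO1 and 1.08 ± 0.16 (adjusted p = 9.45e-10) in KO2. KRT1, the early suprabasal keratin, had means under 1 or was not listed, and KRT10 was at 0.19, -0.45 and -0.09, with the KO1 value passing the adjusted p (3.69e-05). The list's medians were 0.14, 0.28 and 0.42.

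Of 23 regulators of keratinocyte differentiation, ZNF750 rose in all 3 tables (1.63 ± 0.29 in CBFB KO, 3.23 ± 0.22 in KO1, 2.77 ± 0.33 in KO2), at means of 27.4, 73.8 and 58.4. It codes for a zinc-finger factor of terminal epidermal differentiation. By both thresholds, 1 of 21 tested regulators rose and 1 fell in CBFB KO, 6 of 23 rose and 2 fell in KO1, and 3 of 23 rose and 0 fell in KO2 (3 lower at an unadjusted p under 0.05 in DESeq2). Among the most abundant were TFAP2A (0.17, 0.28 and 0.04, the KO1 value past it) and VDR (-0.06, 0.14 and 0.07, none passing). Of 11 partners and receptors of S100 proteins, 0 rose in each table by both thresholds. At an unadjusted p under 0.05 in DESeq2, 5, 4 and 3 of them were higher (all listed genes 13.8%, 20.0% and 11.8%). ANXA6 fell in CBFB KO (-1.23 ± 0.13, adjusted p = 3.57e-18). The RUNX1 clones showed the opposite sign for ANXA6. It stood at 0.48 ± 0.13 with KO1 and 0.74 ± 0.15 with KO2. Each value was past the adjusted p (DESeq2, 9.70e-04 and 1.84e-05) but short of 2-fold. ANXA2, which S100A10 binds, was at 0.35, 0.20 and 0.40, MYH9, which S100A4 binds, at 0.54, 0.66 and 0.28, and AHNAK at 0.04, 0.41 and 0.27. ANXA1, which S100A11 binds, was higher in all 3 tables by adjusted p alone (0.51, 0.53 and 0.49, at means of 14458 to 15641). Of the values of ANXA2, MYH9 and AHNAK, ANXA2 in CBFB KO (adjusted p = 0.00424) and MYH9 in KO1 (adjusted p = 1.61e-06) passed the adjusted p. S100P, the 1 listed S100 gene outside the cluster, had negative values, at -0.56 ± 0.29 in CBFB KO (adjusted p = 0.179) and -0.54 ± 0.17 in KO1 (adjusted p = 0.00472).

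MCF10A cells carried the basal keratin KRT5 at means of 87894, 101688 and 95221, with log2 fold changes of -0.27, -0.24 and -0.26, and KRT14 rose in CBFB KO (2.97) and KO1 (2.95) and was not listed in KO2. The other basal markers had positive values: KRT17 (0.57, 0.69 and 1.27), TP63 (0.76, 1.08 and 0.55), ITGB4 (0.63, 0.78 and 0.55) and LAMB3 (0.12, 0.56 and 0.46). Of these, KRT17 in KO2 and TP63 in KO1 passed both thresholds. Of the luminal markers, KRT8 rose in CBFB KO (1.36) and KO2 (1.01), KRT19 had means of at most 2.05 and PGR was not listed. KRT18 (0.92, 0.19 and 0.78) and EPCAM (0.43, -0.15 and -0.14) passed the adjusted p in CBFB KO alone, short of 2-fold. ESR1 (-0.56, 0.08 and -0.01) passed in no table. The summed means were 145665 to 195424 for the basal list and 24000 to 31603 for the luminal list. The fibroblast list summed to 247 to 316, almost all COL1A1, which rose in all 3 tables (1.40, 1.75 and 1.36), while DCN, at means of 6.66 to 7.34, fell in all 3 (-1.06, -1.80 and -1.61), with COL3A1 not listed and COL1A2 at 0.145 in 1 table, and the endothelial list summed to 1.12 to 1.86. The part of any change in cell makeup in the members' values was not tested, and in such bulk libraries more RNA per cell and more cells of a kind cannot be told apart.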

How the data were processed

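RNA of 18 MCF10A samples had been sequenced by the authors. The submitters' processing notes name Trimmomatic, STAR and DESeq2 along with the build hg19, without versions, and the read counter and annotation are not given in the sources used here. The labels name an mRNA kit, whereas the methods describe depletion of ribosomal RNA. The authors deposited 1 DESeq2 table per knockout, which holds the mean of counts divided by size factors (a signal), the log2 fold change and its SE, a test score and raw and adjusted p-values. The score equalled fold change over SE within 4.9e-07. These columns are the authors' own comparison, and with 0 columns of per-sample values they are the basis of each result here. The labels also name 1 matrix for each experiment, which was not analysed here.

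Depth per library is unknown. Summed means were 20214423, 18050386 and 16467400, and for means of 100 or more the median SE was 0.118, 0.105 and 0.213 in the CBFB KO, KO1 and KO2 tables. Genes without an adjusted p (filtered by the authors at low means) were not tested, which left 14975, 16394 and 15636 genes.

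Tables were joined by Entrez ID. CBFB KO was set against each RUNX1 clone through the difference of log2 fold changes over its SE (normal distribution, two-sided p), adjusted by Benjamini-Hochberg over all genes tested in both. This step was tested on simulated fold changes drawn without moderation, so that check does not cover the effect of moderation. No test was made between KO1 and KO2, whose WT is the same. Unmoderated fold changes assume a zero-centered prior whose SD is 2 times the highest SE of the table, and are printed only below 0.95 of that SE and for means of 100 or more. The count of calls without moderation uses such values of all members. Transcript lengths were those of the longest GENCODE 29 transcript. Symbols, gene order and promoters came from RefSeq GRCh38.p14, and no gene coordinates of the hg19 tables are given. Members named with values were those changed in at least 1 table, at an adjusted p under 0.05 or with a mean of at least 100, of the other lists those changed in all 3 tables and the 3 most abundant, and of the flanking genes those changed. Other named genes, such as S100A1, S100A5, LCE1C, LCE1E, ANXA1, TGM1 and KRT10, were chosen after their values were seen. Some genes of these lists are not reported here by name. Members and lists were chosen with earlier results of these data known. Tools were Python 3.11.15, numpy 2.4.6, pandas 2.3.3, scipy 1.17.1 and matplotlib 3.10.9.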

Additional observations from a re-analysis of the deposited data

Results flagged for a closer look

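The change of 4 members differed between CBFB KO and a RUNX1 clone by the test of the difference. For S100A2 the log2 fold change in CBFB KO exceeded that in KO1 by 0.37. For IVL the difference of CBFB KO from KO1 was -1.20 and from KO2 -0.94, for S100A8 it was -1.09 from KO1 and for SPRR1A -1.39 from KO1. Without moderation, IVL still differed from KO1 but no longer from KO2 (-0.73 ± 0.32, adjusted p = 0.411). S100A2 no longer differed from KO1 once the length and GC trend was removed (0.09 ± 0.12, adjusted p = 0.790). S100A8 and SPRR1A had means under 100 in both tables, so their differences were not computed without moderation, and in CBFB KO their own change did not pass (adjusted p = 0.351 for each, DESeq2). CBFB KO and the RUNX1 clones came from separate experiments, each with its own WT and with single clones per group. Differences between experiments, between clones and between the lost genes therefore cannot be told apart.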

How the results depend on the processing

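No paired analysis was possible because the 3 tables used here hold no value per library, and for the same reason no replicate could be left out and no replicate block fitted. These fits were not run. By both thresholds the counts of changed members were 4 (CBFB KO), 9 (KO1), 6 (KO2) and 1 in all 3 tables. Without a fold threshold they were 13 in CBFB KO, 20 in KO1 and 3 in all 3 tables. At a fold of 4 they were 0, 1 and 1, and 0 in all 3, and by a test of a change beyond 2-fold 0, 3 and 1, and 0 in all 3. Restricted to means of at least 100 they were 2, 2 and 3, and KO1 had 5 at means of at least 10. The low-mean members fall out of these counts by construction. Without moderation, an alternative chosen after seeing the data, CBFB KO had 8 (FLG, S100A3, S100A4 and TCHH added), KO1 11 and KO2 7. Differences between CBFB KO and KO1 fell from 4 to 2 members at means of at least 100. Those from KO2 fell from 1 to 0 without moderation. The median of S100A genes alone was 0.26 in KO1, beside 0.53 over all members there, and all other medians moved by less than the members' median SE. Removing the length and GC trend (for medians added after seeing the data) gave medians of 0.47, 0.77 and 0.65. Centring changed no count of members. With the trend removed, 3 values that did not pass changed sign: S100A6 in CBFB KO (0.04 to -0.05) and KO1 (-0.13 to 0.13) and S100A14 in KO1 (-0.05 to 0.14). Over 58 values of single members, the trend removal took SPRR1A in KO2 below the threshold and brought S100A3 in KO1 above it, and the test beyond 2-fold lost 15 calls. Per-library depth was not analysed here, and means of a few normalized counts limit the calls of CRCT1, CRNN, KPRP, PGLYRP3 and PGLYRP4.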
